A study of Mus musculus with 3 samples.

Results

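The nitric oxide and natriuretic peptide genes described here are 10 mouse genes of the cyclic GMP (cGMP) pathway: the nitric oxide synthase genes Nos1, Nos2 and Nos3, the synthase partner gene Nostrin, the methylarginine hydrolase genes Ddah1 and Ddah2, the receptor genes Npr1 and Npr3, the kinase gene Prkg1 and the phosphodiesterase gene Pde5a. They were chosen by gene symbol, taking every probe set whose annotation names 1 gene and no other. This gave 22 probe sets for 10 genes, out of 34945 such probe sets for 18193 genes on the array. The samples are isolated kidney glomeruli of 3 male mice of the FVB/NJ strain, nondiabetic, 8 weeks old and fed rodent chow, with no transgene or drug named. Each of the 3 Affymetrix arrays holds RNA from the pooled glomeruli of 1 mouse. FVB is the nondiabetic strain against which the series set its diabetic OVE26 mice, which were not analysed here, so there was 1 group and no comparison between conditions.

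Nitric oxide is made from arginine by the nitric oxide synthases and activates soluble guanylyl cyclase, which produces cGMP. Natriuretic peptides from the heart reach the same messenger by another route, through receptors that carry their own guanylyl cyclase. In the glomerulus cGMP relaxes mesangial cells and arterioles and raises filtration, and its level is set by synthesis and by breakdown through phosphodiesterases.

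Values are log2 GCRMA expression values, on which a difference of 1 is a 2-fold difference, and errors are SD over the 3 mice (n = 3). A probe set was called above background when it exceeded, on all 3 arrays, the 95th percentile of 80 probe sets that read receptor genes of the nose (olfactory and vomeronasal), genes with no known place in the glomerulus. These thresholds were 2.58, 2.91 and 2.86 in mice 1, 2 and 3. Since different probes bind with different strength, the level of a gene was compared between mice and never with that of another gene.

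The arrays carried the markers of the labelled tissue. Every podocyte marker (11), glomerular endothelial marker (14) and mesangial or pericyte marker (9) with a probe set exceeded background in each mouse. Markers of other cell types differed between the isolates: proximal tubule markers had a summed signal of 2920, 4306 and 13844 in mice 1, 2 and 3 (linear scale, 14 genes), and leukocyte markers one of 1527, 830 and 583 (13 genes). RNA quality, read as the 3′ minus 5′ difference of control probe sets, also differed, a larger difference meaning poorer RNA. This difference was 1.49, 1.81 and 2.05 in mice 1, 2 and 3 for actin and 0.48, 1.08 and 0.92 for Gapdh. It was smallest in mouse 1 by either and largest in a different mouse by each. The array of mouse 2 was highest for all 18 probe sets of spiked-in transcripts, several of which can read the same transcript. Less RNA per cell and fewer cells of a type cannot be told apart in such bulk samples.

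Of the 10 genes, 9 exceeded background in every mouse and Nos2 in none. Across all genes 58.3% were above background. Of the 22 probe sets, 16 were above background on every array and 6 on none. Among all 34945 probe sets of 1 gene, 18472 were above background on every array. The exceptions within detected genes were 3 of the 4 probe sets of Nos1 and 2 of the 5 of Ddah1.

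**Figure D1:**
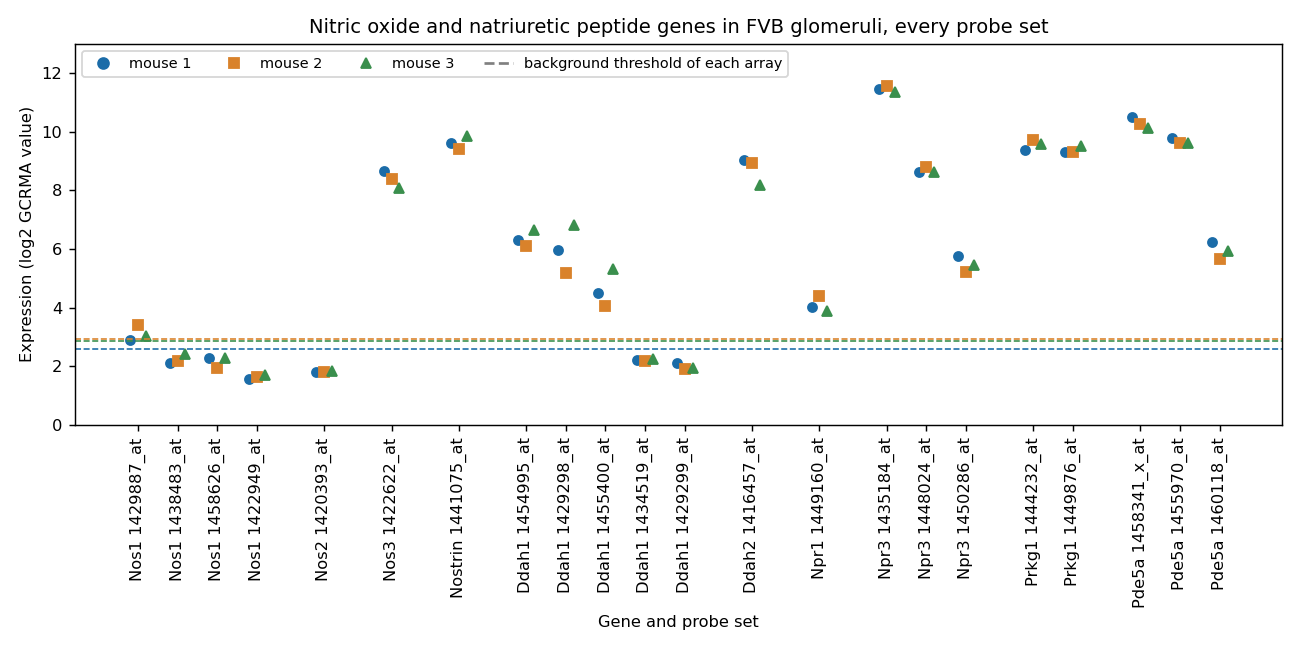
Expression (log2 GCRMA value) of each of the 22 probe sets in mice 1, 2 and 3, grouped by gene. Dashed lines are the background thresholds of the 3 arrays (2.58, 2.91 and 2.86); the probe set of Nos2 lies under them, and 1 of the 4 probe sets of Nos1 lies just above.

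The nitric oxide synthases gave 3 different pictures. Nos3 encodes the endothelial enzyme, which makes nitric oxide in the vessel wall. It was at 8.65, 8.38 and 8.08 in mice 1, 2 and 3 (8.37 ± 0.28), well above background in each. The highest and the lowest mouse, 1 and 3, differed by 0.57, or 1.48-fold.

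Nos1 encodes the neuronal enzyme, which in the kidney is known from the macula densa, the tubule cells that touch the glomerular pole. Its 1429887_at probe set was at 2.90, 3.42 and 3.03 in mice 1, 2 and 3 (3.12 ± 0.27). These values lay above the thresholds by only 0.32, 0.51 and 0.17. The other 3 probe sets of Nos1 were below background in every mouse, between 1.55 and 2.42. Detection of Nos1 therefore rested on 1 of 4 probe sets, and it was lost with the threshold at the 99th percentile of the receptor probe sets.

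By its values Nos1 was highest in mouse 2 and lowest in mouse 1. The background thresholds of the arrays (2.58, 2.91 and 2.86) have the same order. Measured from the thresholds, Nos1 was lowest in mouse 3 (0.32, 0.51 and 0.17 in mice 1, 2 and 3), so its order is uncertain. Of the other 5 macula densa markers, all above background and 1 of them (Slc12a1) also a distal nephron marker, 3 were also highest in mouse 2 and 4 were lowest in mouse 1. Their summed signal was 1255, 3590 and 2063 in mice 1, 2 and 3, and that of the 13 distal nephron markers (loop of Henle, distal tubule, collecting duct) was 6909, 15929 and 10672. These linear sums mostly follow the brightest genes, Slc12a1 in the first and Umod and Slc12a1 in the second, so they are not independent. Slc12a1 was at 10.09, 11.68 and 10.85 in mice 1, 2 and 3. Among the macula densa markers Robo2 was nearly even (5.37, 5.48 and 5.42), and Avpr1a was highest in mouse 1 (5.40, 5.13 and 5.28). Of the 13 distal nephron markers 6 were above background on all arrays. Scnn1b, Fxyd4 and Trpm6 were below it in all mice, and Slc12a3, Aqp2, Aqp3 and Hsd11b2 in some. The part of the macula densa and distal nephron markers in the Nos1 values was not tested.

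Nos2 encodes the inducible enzyme, known from activated macrophages. It was at 1.80, 1.82 and 1.84 in mice 1, 2 and 3, below the threshold by 0.78, 1.10 and 1.02. A transcript of Nos2 was thus not detectable with this 1 probe set, and values this low carry no order of the mice.

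Nostrin encodes a protein that binds the endothelial synthase and moves it away from the plasma membrane. Its values were 9.62, 9.42 and 9.86 in mice 1, 2 and 3 (9.63 ± 0.22). Mouse 3 was highest and mouse 2 lowest, 1.35-fold apart, so its order of the mice was not that of Nos3. Of the 14 endothelial markers, 10 were highest in mouse 1, 2 in mouse 2 and 2 in mouse 3, and their summed signal was 47295, 40701 and 41514. None of these markers was below background, and their part in the Nos3 and Nostrin values was not tested.

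The methylarginine hydrolases break down asymmetric dimethylarginine, a natural inhibitor of the nitric oxide synthases, and thereby allow nitric oxide to be made. The genes Ddah1 and Ddah2 encode related enzymes of this kind and were each well above background, with the mice in different order. The 250 bases before their annotated starts are shown because the values of this pair ran in opposite directions in mouse 3. They are reference sequences, not read from these mice, and their part in the differences between mice was not tested. The sequences are from RefSeq (build GRCm38.p6), both on the plus strand, at chr3:145758442-145758691 for Ddah1 and chr17:35058785-35059034 for Ddah2. Capitals mark the GC box, searched as GGGCGG on both strands.
Ddah1: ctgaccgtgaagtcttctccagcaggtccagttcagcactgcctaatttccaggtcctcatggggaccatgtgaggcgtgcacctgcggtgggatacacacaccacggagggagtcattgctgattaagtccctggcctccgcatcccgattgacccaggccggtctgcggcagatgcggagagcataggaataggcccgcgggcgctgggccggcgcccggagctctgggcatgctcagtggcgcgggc
Ddah2: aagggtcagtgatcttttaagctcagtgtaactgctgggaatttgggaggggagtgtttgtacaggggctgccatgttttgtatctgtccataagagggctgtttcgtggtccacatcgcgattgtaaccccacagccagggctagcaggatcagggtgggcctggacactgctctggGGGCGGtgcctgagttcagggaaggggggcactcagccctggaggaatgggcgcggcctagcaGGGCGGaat
The Ddah2 window holds 2 GC boxes, whose first bases lie 72 and 9 bases before the start, and the Ddah1 window holds 0. Ddah1 has the higher G and C content, 64% against 58%, with 17 CG pairs against 7. Among all 32851 promoter windows of this length in the table, 32.7% hold a GC box. Windows were found for 8 of the 10 genes, with 9 start sites, and 5 of the 9 hold a GC box: those of Ddah2, Npr1 and Pde5a and both of Prkg1. A TATA box, searched as TATAAA on both strands, was in 0 of the 9 windows and in 12.4% of all windows. These matches describe the letters and show no binding.

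Ddah2 had the largest SD of the 9 genes when each is read by its probe set with the highest mean; 2 other probe sets of Ddah1 had larger ones (0.83 and 0.65). It was at 9.05, 8.95 and 8.19 in mice 1, 2 and 3 (8.73 ± 0.47), read by 1 probe set. Mice 1 and 2 lay 0.10 apart, and mouse 3 lay below mouse 1 by 0.86, a 1.82-fold difference. Leukocyte markers were also lowest in mouse 3 for 5 of the 8 above background, and highest in mouse 1 for 6 of 8. Their median level was 6.78, 4.99 and 4.78 in mice 1, 2 and 3, whereas Ddah2 was nearly even in mice 1 and 2. Of the 13 leukocyte markers Cd68, Cd3e, Cd79a and Itgam were below background in all mice. Lowest in mouse 3 were also 7 of 11 podocyte and 4 of 5 smooth muscle and renin cell markers, but 0 of 13 proximal tubule markers. Endothelial markers were highest in mouse 1 for 10 of 14. The part of any of these markers in the Ddah2 values was not tested.

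Ddah1 was highest in mouse 3 and lowest in mouse 2 on each of its 3 probe sets above background. The 1454995_at probe set, which has the highest mean and stands for the gene in counts over genes, was at 6.30, 6.11 and 6.66 in mice 1, 2 and 3 (6.36 ± 0.28), a 1.46-fold range. The 1429298_at probe set was at 5.98, 5.16 and 6.82, a 3.15-fold range. The 1455400_at probe set was at 4.51, 4.06 and 5.33, a 2.42-fold range.

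The probe sets of Ddah1 thus gave the same order of the mice and different sizes of difference. Among all 1163 genes with 3 probe sets above background, 11.4% had all 3 highest in 1 mouse and all 3 lowest in 1 mouse. The remaining probe sets of Ddah1, below background, lay between 1.91 and 2.24. Proximal tubule markers were highest in mouse 3 too, for 12 of the 13 above background. Most of them were lowest in mouse 1 (11 of 13), whereas Ddah1 was lowest in mouse 2. No marker of that list of 14 was below background in all mice, and its part in the Ddah1 values was not tested.

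**Figure D2:**
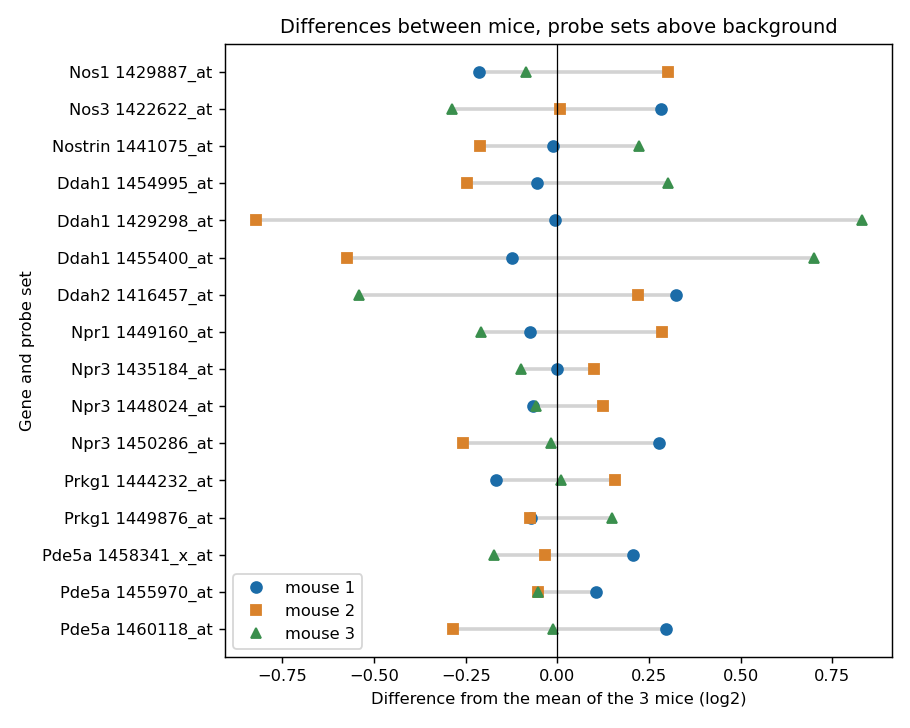
Difference of each mouse from the mean of the 3 mice (log2) for the 16 probe sets above background, with a grey line from the lowest to the highest mouse. The 3 probe sets of Ddah1 put mouse 3 on the right and mouse 2 on the left, and the probe set of Ddah2 puts mouse 3 on the left.

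Npr1 encodes the receptor of atrial and brain natriuretic peptides, a guanylyl cyclase that spans the membrane. It was at 4.02, 4.38 and 3.89 in mice 1, 2 and 3 (4.10 ± 0.25), above the thresholds by 1.44, 1.47 and 1.04. Mouse 2 was highest, 1.41-fold above mouse 3. The level rests on 1 probe set.

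Npr3 encodes the clearance receptor, which takes up natriuretic peptides and has no guanylyl cyclase. Its 1435184_at probe set was at 11.47, 11.57 and 11.37 in mice 1, 2 and 3 (11.47 ± 0.10), the smallest SD of the 9 genes by that probe set, with a 1.15-fold range. The 1448024_at probe set was at 8.62, 8.81 and 8.63, and 1450286_at was at 5.75, 5.21 and 5.45. The first and the second of these probe sets were highest in mouse 2 and the third in mouse 1, so no order of the mice was common to the gene. The receptor is known from podocytes, whose 11 markers had a median SD of 0.114. Among them Tcf21 had a 2-fold range (12.44, 11.27 and 12.02 in mice 1, 2 and 3), and Nphs1 had an SD of 0.25.

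Prkg1 encodes the cGMP-dependent protein kinase of smooth muscle and mesangial cells, which carries the signal of cGMP to its targets. Its 1444232_at probe set was at 9.39, 9.72 and 9.57 in mice 1, 2 and 3 (9.56 ± 0.16), and 1449876_at was at 9.30, 9.30 and 9.52. The former was highest in mouse 2 and the latter in mouse 3. Across all genes with 2 probe sets above background, 49.9% had both highest in the same mouse.

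Pde5a encodes the cGMP-specific phosphodiesterase that sildenafil inhibits, which ends the signal. Its 3 probe sets were all above background and all highest in mouse 1. The 1458341_x_at probe set was at 10.49, 10.25 and 10.11 in mice 1, 2 and 3 (10.29 ± 0.19), a 1.30-fold range. The x in its name marks probes that can bind other transcripts as well. The 1455970_at probe set was at 9.79, 9.63 and 9.63, with an identical value in mice 2 and 3 that lowers its SD, and 1460118_at was at 6.25, 5.67 and 5.94. Of genes with 3 probe sets above background, 27.3% had all 3 highest in the same mouse.

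Smooth muscle and renin cell markers had a summed signal of 2442, 3037 and 1920 in mice 1, 2 and 3, with Cnn1 and Actg2 below background in all. Of the 5 above background 4 were highest in mouse 2, where Prkg1 was highest by its brighter probe set and Pde5a was not. The 9 mesangial and pericyte markers had a summed signal of 31768, 31000 and 30980.

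The spread between mice was then set against that of all genes. None of the 9 genes above background had a 2-fold range between mice by the probe set with the highest mean, where 5.94% of 10609 genes did (630 genes, and 319 to 371 when 1 mouse is left out). Counting every probe set above background, 2 of 16 had such a range, both of Ddah1, against 5.87% of all 18472. By the probe set with the highest mean, the SD of the 9 genes ran from 0.10 for Npr3 to 0.47 for Ddah2, with a median of 0.255 against 0.157 over all genes above background. All but Npr3 had an SD above that median. That median is not matched for level: the SD that the fit gives for genes of like level was 0.232 for the dim Npr1 and 0.108 for the bright Npr3. The largest ratio of an SD to this fitted SD was that of Ddah2, at 3.26, followed by Nos3 at 1.86. The ratio was 1.71 for Nostrin, 1.61 for Pde5a, 1.28 for Nos1, 1.26 for Prkg1, 1.24 for Ddah1, 1.10 for Npr1 and 0.92 for Npr3. These ratios were fitted only for the probe set with the highest mean. For Ddah1 that probe set had an SD of 0.28, against 0.83 and 0.65 for its other probe sets above background.

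**Figure D3:**
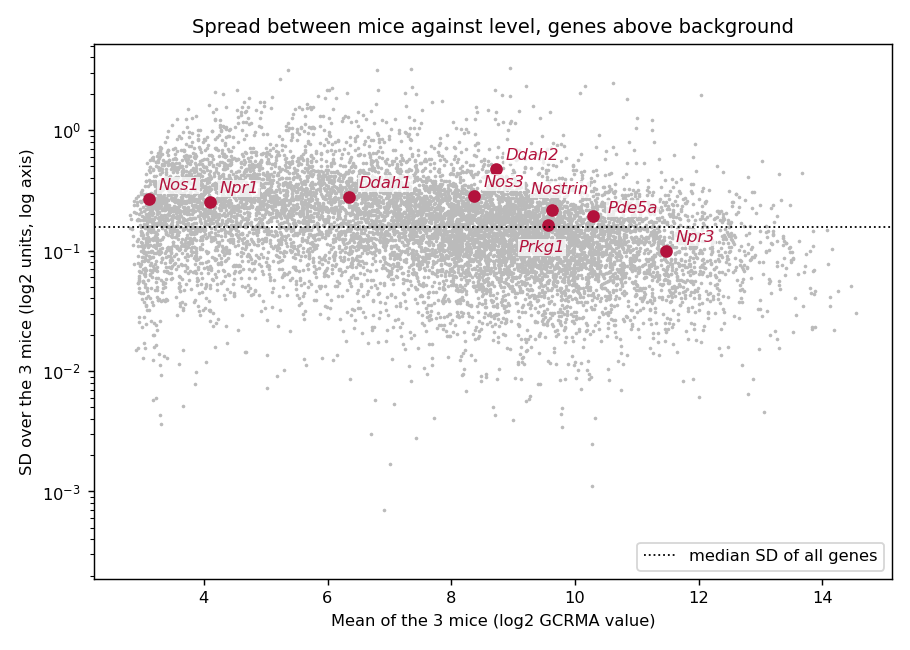
SD over the 3 mice (log axis) against the mean of the 3 mice (log2 GCRMA value) for the 10609 genes above background, in grey, with the 9 genes in red, each by its probe set with the highest mean. The dotted line is the median SD of all genes (0.157); Npr3 lies under it and Ddah2 has the largest SD of the 9.

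A gene's variance over the mice was tested against genes of like level with limma, one-sided, with Benjamini-Hochberg adjustment over all 10609 genes. Each gene was read by its probe set with the highest mean, so the more variable probe sets of Ddah1 were not tested singly. None of the 9 genes passed an adjusted p of 0.05, and neither did any other gene (0% of those tested). In that limma test Ddah2 had an unadjusted p of 0.0408 and an adjusted p of 0.972, and Nos3 had 0.162 and 0.972. An unadjusted p under 0.05 was reached by 493 genes, or 4.65%, and by 1 of the 9. With 3 mice and no gene called, a p above the threshold does not show that a gene's spread was ordinary, and the differences between mice given above are descriptions.

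Read by the probe set with the highest mean, 3 of the 9 genes were highest in mouse 1, 4 in mouse 2 and 2 in mouse 3, against 35.1%, 28.6% and 36.3% of all genes. Lowest in mouse 1 were 2, in mouse 2 another 2, and in mouse 3 the remaining 5 (Nos3, Ddah2, Npr1, Npr3 and Pde5a), against 33.3%, 35% and 31.7% of all genes. The other probe sets of Npr3 were not lowest in mouse 3, and 1460118_at of Pde5a was lowest in mouse 2. Quantile normalisation and median centring alter these already normalised arrays little, and with them the highest and lowest mouse of each gene stayed in place.

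**Figure D4:**
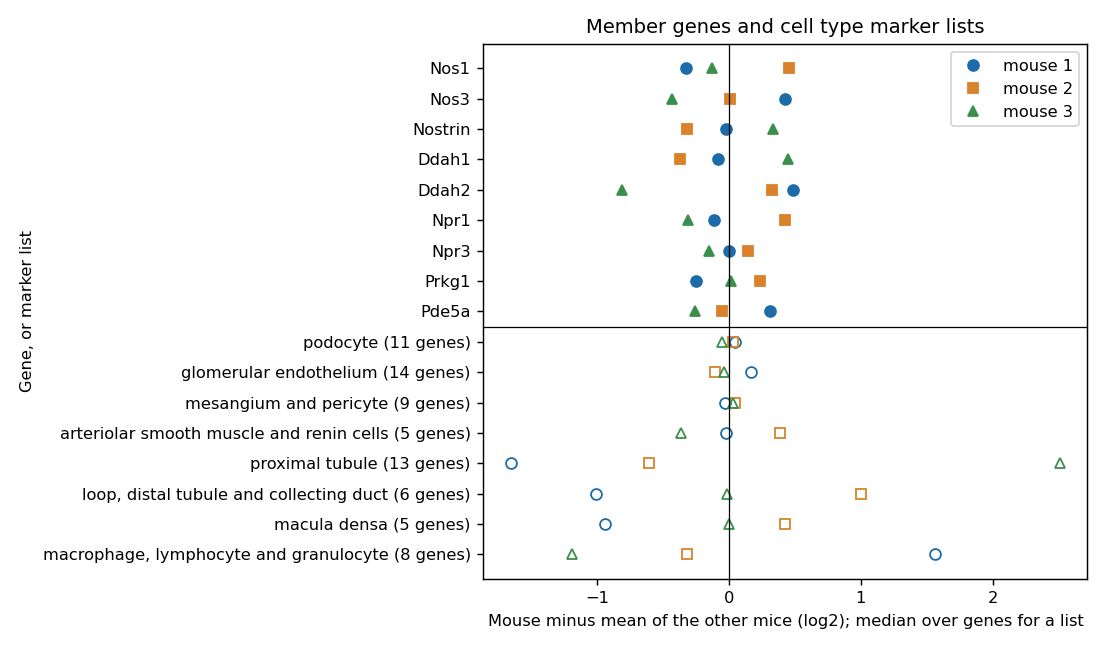
Each mouse minus the mean of the other mice (log2) for the 9 genes above background (filled symbols) and as the median over each list of cell type markers (open symbols). The genes stay within 1 on either side, and the proximal tubule list reaches 2.51 in mouse 3.

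For the 3 genes with the largest SD by that probe set, the genes with the most similar differences between mice were found by Euclidean distance of centred log2 values over the 3 arrays. For Ddah2 these were Ptrhd1 (6.20, 6.12 and 5.37 in mice 1, 2 and 3, distance 0.0269), Alox5ap (distance 0.0299) and Rassf5 (distance 0.0437). Nos3 was nearest to Ssu72, Alg5 and Emc9, and Ddah1 to Ahctf1, Taok3 and Il3ra. Over so few arrays such likeness is common: 177 genes lay within 0.1 of Nos3, 175 of Ddah1 and 13 of Ddah2.

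The rest of the pathway was described through a list of 44 genes, of which 42 had a probe set. Of these 42, 31 were above background in all mice, or 73.8% against 58.3% of all genes. None of the 31 passed the limma test after adjustment. A 2-fold range was seen for 3 of 31, namely Pde1a, Pde10a and Prkg2, or 9.68% against 5.94% of all genes. The median SD of the 31 was 0.118, against 0.157 over all genes above background, again a median not matched for level. The soluble guanylyl cyclase, the receptor of nitric oxide, was measured through Gucy1a1 (12.07, 12.06 and 11.97 in mice 1, 2 and 3; 12.04 ± 0.05) and Gucy1b1 (10.46, 10.61 and 10.61; 10.56 ± 0.09), which encode its subunits. All 4 cyclase genes were above background, and the widest range among them was 0.21.

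The ligands of the natriuretic receptors were not detectable in the isolates. Nppa, Nppb and Nppc, which encode the atrial, brain and C-type peptides, and Corin, which encodes the protease that activates the atrial peptide, were below background in all mice. Mme, which encodes neprilysin, a protease that degrades natriuretic peptides, was at 11.84, 11.80 and 11.95 in mice 1, 2 and 3 (11.87 ± 0.07). Furin, a protease gene, was at 7.59 ± 0.20.

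Phosphodiesterase genes other than Pde5a included the widest difference of the list. Pde1b and Pde1c were below background in all mice, and the other 6 of 8 exceeded it. Pde1a, a calmodulin-dependent enzyme gene, was at 5.35, 6.44 and 6.57 in mice 1, 2 and 3, lowest in mouse 1. Pde10a, whose enzyme degrades cGMP and cAMP, was at 9.85, 8.91 and 8.73, highest in mouse 1, as it was on each of its 3 probe sets above background. Pde2a, a gene of a cGMP-stimulated enzyme, was at 12.06, 11.68 and 11.59.

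Of 7 genes downstream of cGMP 6 were above background, and these were even between mice with 1 exception. Kcnma1 was below background in all mice. Vasp, a kinase substrate that binds actin, was at 10.06 ± 0.02, and Mrvi1, a kinase substrate of the calcium store, at 9.73 ± 0.12. Prkg2, which encodes the other cGMP-dependent kinase, was at 3.43, 4.55 and 4.16 in mice 1, 2 and 3. It was lowest in mouse 1 and highest in mouse 2, the order of the mice for Nos1 and for the summed signal of the distal nephron markers, and its other probe set above background was highest in mouse 3. The part of those markers in the Prkg2 values was not tested.

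Partners of the synthases and genes of their cofactor synthesis were all above background where they had a probe set, 9 of 9. The median SD of these 9 was 0.263, against 0.157 over all genes above background, a median not matched for level. Cav1, which encodes caveolin, a protein that holds the endothelial synthase inactive, was at 11.38, 11.39 and 11.22 in mice 1, 2 and 3 (11.33 ± 0.10). Nosip, a synthase-interacting protein gene, was at 8.51 ± 0.09. In arginine supply and methylarginine metabolism 4 of 8 genes were above background. Among them were the arginine transporter genes Slc7a1 and Slc7a2 and Prmt1, which encodes a protein arginine methyltransferase (9.32 ± 0.09). Asl, an enzyme gene of arginine synthesis, was at 5.33 ± 0.10. The arginase genes Arg1 and Arg2, Ass1, whose enzyme acts just before that of Asl, and Agxt2 were below background in all mice.

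**Figure D5:**
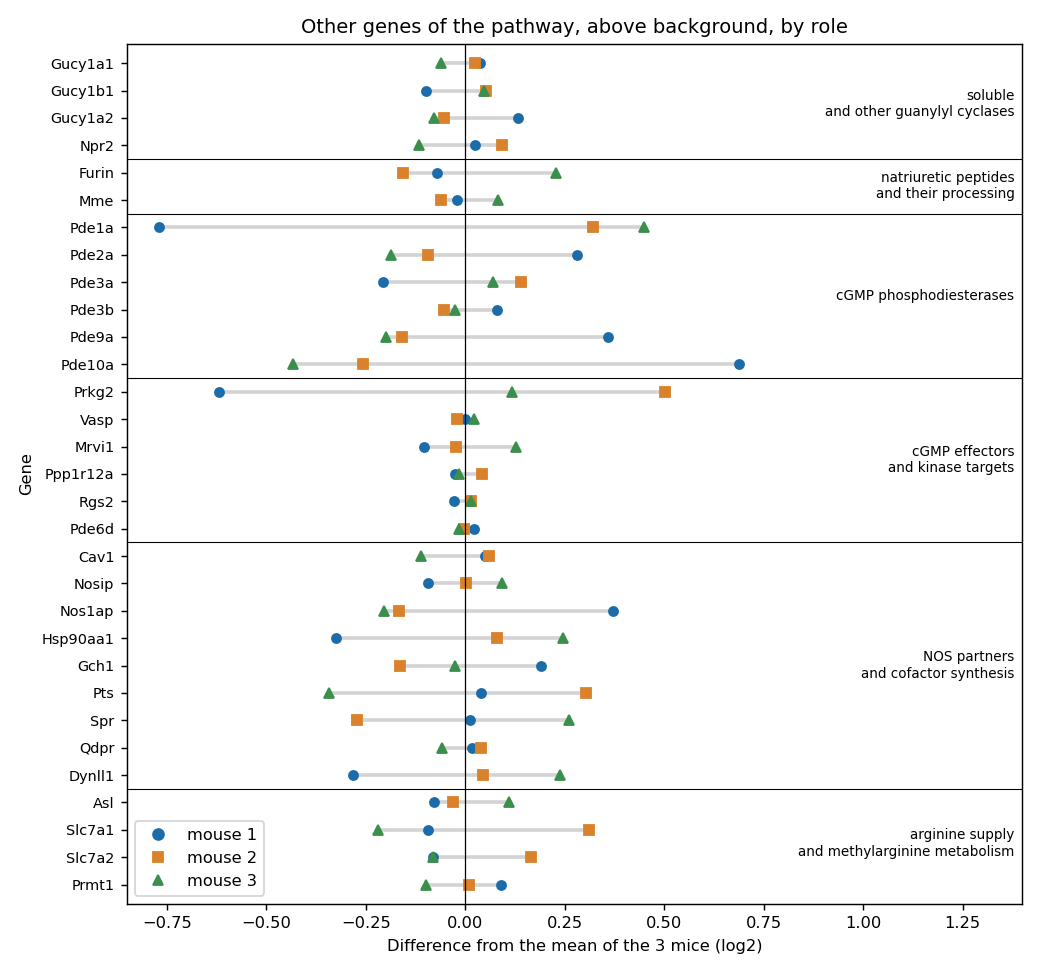
Difference of each mouse from the mean of the 3 mice (log2) for the 31 other genes of the pathway above background, by role. Pde1a, Pde10a and Prkg2 span at least 1 from the lowest to the highest mouse, and the cyclase genes span at most 0.21.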

How the data were processed

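The deposited values are log2 expression values of 45101 probe sets on 3 arrays, made by the authors with GCRMA per the submitters' processing notes. GCRMA corrects background by probe sequence and normalises arrays to a common distribution. Its version, and which arrays were normalised together, are not given in the sources used here. Nothing states the scale; values of 0.67 to 14.76 point to log2. Between 2.18% and 2.48% of probe sets had identical values on a pair of arrays, which lowers their SD. The values were used as they stand.

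Gene names came from the platform annotation. All 10 genes matched a RefSeq gene identifier, and no coordinates are given for probe sets because the sources name no build for them. The probe set with the highest mean stood for a gene (9010 of 18193 genes had several). Control probe sets (64) and those of several genes (932) were left out. The variance test used limma 3.58.1 in R 4.3.3 (fitFDistRobustly, trend on mean level, 2 residual degrees of freedom) and was tested on simulated data. In the simulated data it missed most genes given the smallest excess of variance. Each mouse is 1 sample on 1 array, so differences between mice include those of isolation, RNA and array. The p-values compare a gene's variance over the arrays with that of genes of like level. Precision is limited by the number of arrays.

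The genes, the lists and the tests were chosen with earlier results of these data known. Named were all 10 genes, the pathway genes with a 2-fold range, the first 2 of each role group, and the 3 nearest patterns. Nppc, Corin, Furin, Mme, Pde1c, Pde2a, Mrvi1, Kcnma1, Ass1, Asl, Slc7a1, Slc7a2, Prmt1 and Agxt2 were added after their values were seen. Alternatives were the mean over probe sets, another threshold, no filter, quantile normalisation, median centring, a fit with no trend, leaving out each mouse, and, added after the data were seen, counting any probe set above background.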

Additional observations from a re-analysis of the deposited data

How the results depend on the processing

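Counts over the 10 genes changed little with the processing. The number above background was 9, and 8 with the 99th percentile threshold or with the mean over probe sets, where Nos1 was lost. The number with a 2-fold range was 0 under the mean over probe sets, both scalings, no filter, the other threshold and without each mouse, and 1 (Ddah1) when any probe set above background counted, an alternative chosen after seeing the data. The limma variance test called 0 genes under these settings and with no trend in the fit, with 300 to 657 genes at an unadjusted p under 0.05. The lowest adjusted p of any of the 9 genes was 0.908. With the mean over probe sets, the mean levels of Nos1, Ddah1, Npr3 and Pde5a moved by more than 1 SD, to 2.28, 4.23, 8.54 and 8.64. The count of all genes with a 2-fold range, 630, was 319 to 371 without 1 of the mice. No paired analysis was possible because the labels give 1 group. With 3 arrays, and with Nos1 near the background threshold, small differences between mice cannot be resolved.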
